A study of Rattus norvegicus with 12 samples.

Results

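The 111 genes described here were transcribed abundantly, and at similar levels, in the brain and the testis of the rat. They were chosen from 25908 genes in the deposited table as those with a mean of at least 100 FPKM (fragments per gene length and library size) over the 6 brain libraries and at least 100 FPKM over the 6 testis libraries, and a ratio of the 2 means between 0.5 and 2. The libraries came from adult male Sprague Dawley rats aged 15 weeks, which were either wild type or carried hDNMT3A, a transgene derived from human DNMT3A. DNMT3A is a DNA methyltransferase that adds methyl groups to cytosines that lack them. Brain and testis were sequenced for each genotype, in 3 libraries per group and 4 groups. The sources used here do not give the promoter of the transgene, the number of founder lines or the brain region. Nor do the labels say whether each library of a group stands for another animal: the p-values below rest on the spread between the 3 libraries, and this spread may be technical. In the names of the libraries, brain and testis share a genotype letter and a number. The labels do not say whether these mark the same rat.

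Transcripts that are abundant in unlike tissues are commonly products of housekeeping genes, which serve tasks that nearly every cell performs, such as protein synthesis, energy supply, protein folding and the cytoskeleton. Genes of this kind are often used as references when the level of another transcript is measured, and a reference is useful only as far as it is steady between tissues, treatments and replicates. Brain holds neurons and glia, while most cells of the adult testis are germ cells at successive stages of sperm formation. The files do not pair their gene identifiers with gene names, and the reference table at hand matched 0 of the 25908 identifiers. The functions of the 111 genes and the levels of rat Dnmt3a, of the transgene and of tissue marker genes were therefore not analysed here.

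Of 678 genes with at least 100 FPKM in brain and 1081 with at least 100 FPKM in testis, 170 reached that level in both tissues. The 111 genes are the part of these 170 whose tissue means lay within 2-fold of each other, and the other 59 differed by more. They took 4.90% to 5.37% of the FPKM sum in the brain libraries and 4.14% to 4.58% in the testis libraries. In reads, they held 2.88% to 3.18% of a brain library and 2.92% to 3.21% of a testis library, or 403035 to 517509 reads. Depth was even, at 14004547 to 16112149 reads per library. Each of the 111 genes had at least 183 reads in each library, with a median over the genes of 3060 reads per library.

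The levels follow from the rule and are given as a description, without a test. Brain means ran from 101 to 1368 FPKM with a median of 164, and testis means from 103 to 1144 FPKM with a median of 173. Most of the genes sat near the lower limit: 62 were under 200 FPKM in both tissues. By contrast, 25 reached 200 FPKM in each tissue, 10 reached 300, 3 reached 500 and 1 reached 1000. The gene nearest the brain minimum inside the rule had a mean of 100.5 FPKM in brain, and the nearest gene outside it 99.6 FPKM. At the testis minimum these values were 103 and 97.7 FPKM. At the limits of the ratio, the outermost genes inside had ratios of brain to testis of 0.508 and 1.90, and the nearest genes outside had ratios of 0.499 and 2.03.

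**Figure D1:**
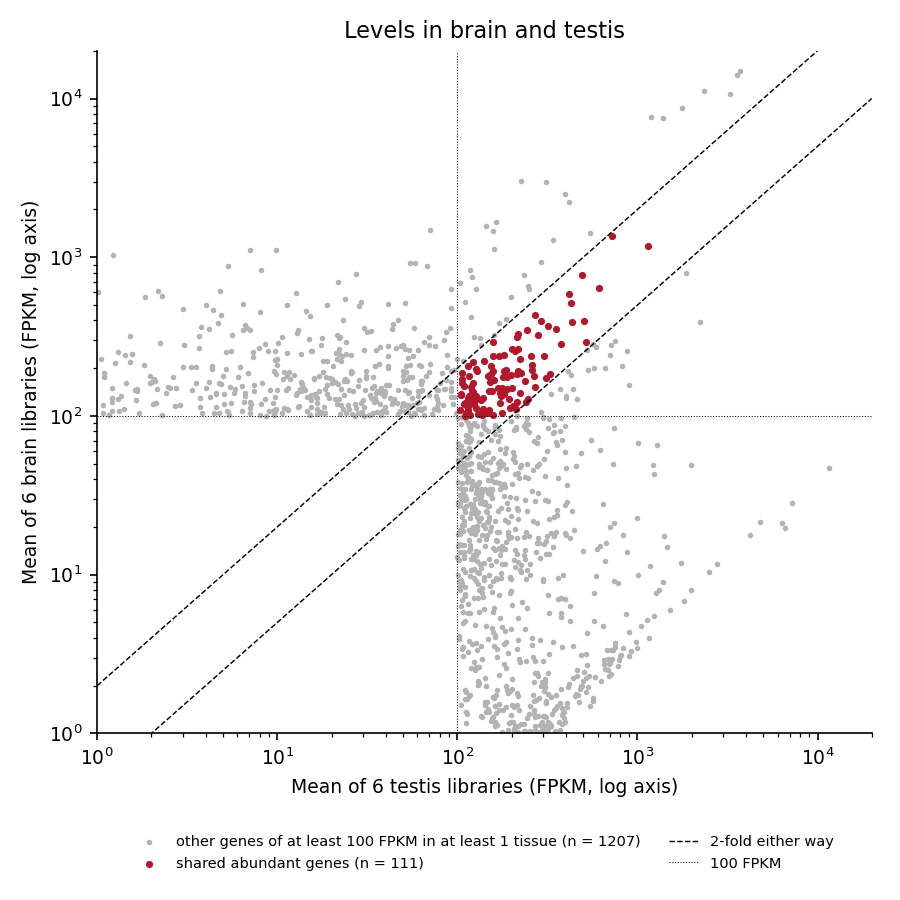
Mean FPKM of the 6 testis libraries (horizontal, log axis) against the mean of the 6 brain libraries (vertical, log axis), with 1 point per gene. The 111 shared abundant genes (red) fill the corner above 100 FPKM in both tissues and between the dashed lines that mark a 2-fold difference; the 1207 other genes of at least 100 FPKM in at least 1 tissue and at least 1 FPKM in the other are grey.

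Within the range that the rule allows, the genes were spread evenly about equality in the deposited values. The median ratio of brain to testis was 1.00, with quartiles of 0.784 and 1.26, and 57 genes were higher in brain against 54 in testis. Tissue means lay within 1.1-fold for 28 genes, within a ratio of 5 to 4 for 53 and within 1.5-fold for 83. FPKM is a share of each library, however, so equality between tissues depends on what else the library holds. Over the 10917 genes whose means reached 1 FPKM in both tissues, the median ratio was 0.34 toward brain on the log2 scale, against 0.01 for the 111 genes. The rule has the same minimum in both tissues and a range symmetric about equality, so a median near equality largely follows from the choice. When libraries were instead scaled by their median log2 ratio, the median of the 111 genes was -0.31: 28 genes were then higher in brain and 83 in testis. The same rule then gave 103 genes, of which 88 were among the 111.

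For 31 genes all 6 brain libraries lay above all 6 testis libraries, for 30 the reverse held, and for 50 the tissues overlapped. The same counts were not made over all genes, so they cannot tell whether the 111 genes differ from others. The rule also chose the genes by their tissue means. On the log2 scale, the tissue difference made up a median of 70.3% of a gene's variation over the 12 libraries (quartiles 24.2% and 88.9%). The spread between replicates made up 22.1% (quartiles 8.91% and 45.2%), genotype 1.38% and the part of genotype that differed between tissues 1.77%. Tissue was the largest part for 77 genes, replicates for 29, genotype for 4 and the interaction for 1. The rule caps the tissue part, so these shares describe the chosen genes only. Among the 53 genes with tissue means within a ratio of 5 to 4, the replicate spread was the largest part for 28.

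Over the 12 libraries, the highest value of a gene was 1.15 to 2.46 times its lowest, with a median of 1.62. It stayed under 1.5 times for 43 genes and under 2 times for 83. The 59 genes that missed the ratio rule had a median of 3.88, and the 10792 genes that reached 1 FPKM in both tissues with no library at 0 had a median of 3.66. The rule sets much of this gap: it holds the tissue means of the 111 genes within 2-fold and leaves the 59 beyond it. Every library was at or above 100 FPKM for 91 of the 111 genes. The gene with the lowest coefficient of variation over the 12 libraries (SD as a percent of the mean), 4.67%, had a mean of 115 ± 5.88 FPKM in brain and 114 ± 5.20 FPKM in testis (SD, n = 6 each). Its libraries ran from 106 to 122 FPKM with a median of 114, and the ranges of the tissues overlapped. It is 643 bases long as counted. The next 4 had coefficients of 5.15% to 6.28% and means of 117 to 130 FPKM, so the 5 steadiest genes all sat in the lower part of the range of levels.

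The most variable gene, at 34.2%, was also the one nearest the lower limit of the ratio. It stood at 122 ± 5.86 FPKM in brain and 240 ± 5.81 FPKM in testis (SD, n = 6 each), so it was steady within each tissue and 1.97 times higher in testis. The gene at the other limit of the ratio had 1368 ± 130 FPKM in brain and 719 ± 50.9 FPKM in testis and was the most abundant of the set in brain. In each of these genes all libraries of the higher tissue lay above all libraries of the lower. The most abundant genes of the set were largely the same between libraries, though their order was not compared. Of the 10 highest genes of the set in a library, 7 were the same in all 12 libraries. Among the 10 highest of the set in at least 1 library were 14 genes. Within brain 8 and within testis 9 of the 10 were shared by all 6 libraries. The rule limits the ratio of the tissue means of each gene, which favours sharing between the tissues. Genes outside the set were not ranked, so these counts have no background.

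Gene length was recovered from the files and was not used by the rule, except that FPKM is divided by it. The 111 genes had a median length of 1116 bases (quartiles 588 and 1793), close to the 1039 bases of the 59 genes that missed the ratio rule. Genes with at least 100 FPKM in either tissue had a median of 1665 bases, and the 10917 genes that reached 1 FPKM in both tissues one of 2243 bases. Lengths under 500 bases were found for 19 of the 111 genes (17.1%), against 18.6% of the 59 genes and 5.57% of the 10917. The 2 shortest were under 200 bases, and short genes rest on few reads for a given FPKM. The length was a multiple of 3 for 38.7% of the 111 genes, 59.3% of the 59 genes and 41.1% of the 10917. Each length is the shortest that gives whole reads, so it is too short for a gene whose 12 read numbers share a common factor.

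Replicates of a group agreed closely. The coefficient of variation of a gene over the 3 libraries of a group had a median of 6.81% in wild-type brain, 7.34% in hDNMT3A brain, 4.0% in wild-type testis and 7.95% in hDNMT3A testis. All genes of at least 1 FPKM in the tissue had medians of 9.52%, 10.2%, 8.72% and 10.8% in these groups. Other abundant genes also had a low spread: those of at least 100 FPKM in the tissue had 6.26%, 7.83%, 3.58% and 5.63%. The medians of the 111 genes were thus below those of all genes in all 4 groups, and against other abundant genes they were lower in hDNMT3A brain and higher in the other 3. Spread was under 10% for 81, 84, 94 and 68 of the 111 genes in the 4 groups and 20% or more for 3, 1, 3 and 8. Genes are not replicates, so these medians were not tested against each other.

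**Figure D2:**
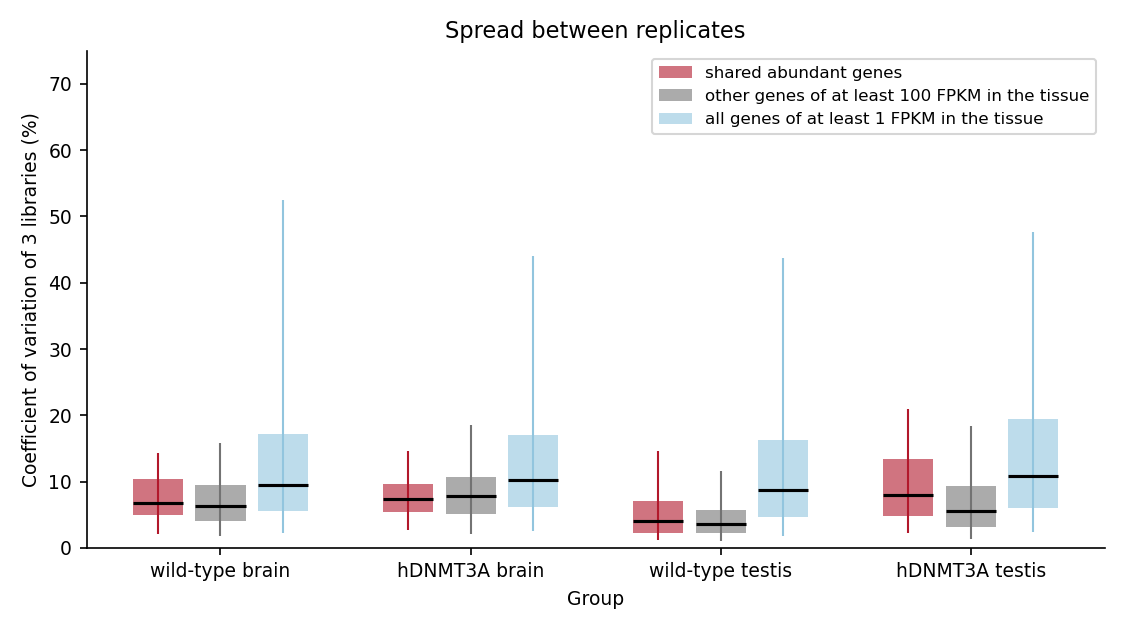
Coefficient of variation of the 3 libraries of a group (vertical axis, percent) for the 111 shared abundant genes (red), other genes of at least 100 FPKM in the tissue (grey) and all genes of at least 1 FPKM in the tissue (blue). The black line is the median, the box spans the quartiles and the vertical line runs from the 5th to the 95th percentile; the red medians lie between 4.0% and 7.95%, under the blue medians of 8.72% to 10.8%.

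Counting error was a small part of the spread of the 111 genes and a larger part of that of all genes. It would give the 111 genes a median coefficient of 1.80% to 1.82% by itself, and with it taken out the medians were 6.34%, 7.03%, 3.36% and 7.79%. All genes of at least 1 FPKM then had 7.16%, 7.99%, 5.14% and 7.82%, so the gap to all genes was narrower and nearly gone in hDNMT3A testis. The spread was wider in shorter genes: averaged over the 4 groups, its median was 10.2% for the 19 genes under 500 bases, 8.59% for the 29 of 500 to 1000 bases, 6.15% for the 48 of 1000 to 2000 bases and 5.38% for the 15 of at least 2000 bases. Counting error alone had medians of 3.07% in the shortest class and 1.27% in the longest, well under the observed values.

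Some libraries shifted the whole set. In hDNMT3A testis replicate 3 the 111 genes lay a median of 0.11 above their mean over the 6 testis libraries, on the log2 scale, and 91 of them were above that mean. This library gave the highest of the 6 testis values for 67 genes (60.4%), against 25.2% of all genes that reached 1 FPKM in testis. The 59 genes abundant in both tissues at unequal levels lay 0.08 above their mean there, while 911 genes abundant in testis but under 100 FPKM in brain lay at -0.00. For 182 genes abundant in testis and under 1 FPKM in brain the value was -0.03. Without this library the median coefficient of variation in hDNMT3A testis was 3.66%, against 7.95% with it. In wild-type testis it was 2.48% without replicate 3, against 4.0%, and in hDNMT3A brain 4.89% without replicate 2, against 7.34%. Each is the lowest value that leaving out a library of that group gave. They rest on 2 libraries against 3, and with 2 the median tends to be lower even at equal spread. Wild-type testis replicate 3 did not shift the set, with a median deviation of 0.00.

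In brain, wild-type replicate 2 was low, with a median of -0.08 and the lowest of the 6 values for 47 genes (42.3%). Other genes of at least 100 FPKM in brain shared this: those under 100 FPKM in testis had a median of -0.07, while the genes that reached 1 FPKM in brain were at 0.02. This library also carried testis transcripts, since 203 genes that reached 100 FPKM in testis and had a brain median no higher than 0.5 FPKM stood there at 1.59% of their testis level, against 0.051% to 0.330% in the other 5 brain libraries. Testis RNA at that share would make up at most 3.31% of the value of any of the 111 genes in this library. Its part in the low values was not tested. Without it the median coefficient in wild-type brain was 4.24%, again over 2 libraries, against 6.81% with it. Wild-type replicate 3 and hDNMT3A replicate 2 were high in brain, with medians of 0.07 each, and hDNMT3A replicate 1 was low at -0.06. In a piece of tissue, fewer cells of a type and less RNA per cell cannot be told apart, and this holds for each difference between libraries and groups given here.

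**Figure D3:**
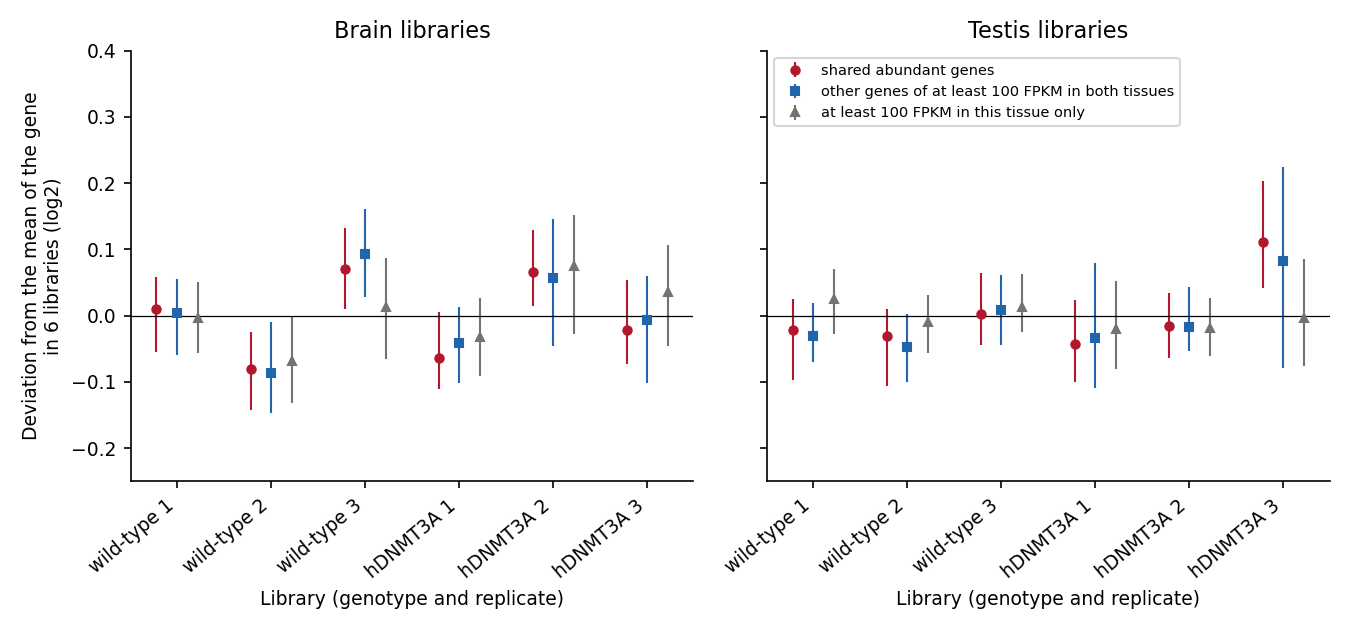
Deviation of each library from the gene's mean over the 6 libraries of its tissue (vertical axis, log2), as the median and quartiles over the 111 shared abundant genes (red circles), the 59 other genes of at least 100 FPKM in both tissues (blue squares) and genes of at least 100 FPKM in that tissue and under 100 FPKM in the other (grey triangles). In hDNMT3A testis replicate 3 the red and blue medians are 0.11 and 0.08, and the grey median is near 0.

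Genotype was compared within each tissue, a contrast that the rule did not use directly because it pools the genotypes. Near the minimum the choice still bears on it: 8 of the 111 genes had a mean under 100 FPKM in 1 group, 4 in wild-type brain, 3 in hDNMT3A brain and 1 in wild-type testis, and were members through the other genotype. Applied to the wild-type libraries alone the rule kept 104 of the 111 genes, and applied to the hDNMT3A libraries alone 108. No gene of the 111 was called between hDNMT3A and wild-type rats in brain or in testis by limma at a Benjamini-Hochberg adjusted p under 0.05. Over all genes tested, 0.116% were called in brain and 0.576% in testis, shares that come to less than 1 gene in 111, so the count of 0 does not set these genes apart. The smallest adjusted p among them was 0.16 in brain and 0.090 in testis. At an unadjusted p under 0.05 there were 14 genes in brain, or 12.6% against 7.87% of all genes tested. Of these, 3 were higher in hDNMT3A, against a background of 3.43%, and 11 lower, against 4.44%. In testis there were 8, or 7.21% against 11.1%, of which 7 were higher, against 6.03%, and 1 lower, against 5.07%. When single libraries were left out, the number in brain ran from 7 without wild-type replicate 1, against 6.14% of all genes, to 18 without wild-type replicate 2, against 7.22%. In testis it ran from 5 without hDNMT3A replicate 2, against 9.25%, to 16 without hDNMT3A replicate 1, against 11.5%. In brain there were 21 with quantile normalization, against 7.92%, and 6 with no intensity trend, against 7.81%. At an adjusted p under 0.1 there were 0 genes in brain, against 0.195% of all genes tested, and 1 in testis, against 1.37%. Fitted with limma's voom on the recovered reads, 0 genes were called in brain, against 0.116% of all genes, and 1 in testis, against 1.3%.

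Directions were mixed, and differences were small. The groups were 1.5-fold or more apart for 2 genes in brain, against 4.6% of all genes tested, and for 1 in testis, against 5.5%. Both brain genes had a mean under 100 FPKM in their lower group. The differences ran from -0.73 to 0.61 on the log2 scale in brain and from -0.66 to 0.40 in testis. In brain 62 of the 111 genes were higher in hDNMT3A and 49 lower, with a median difference of 0.02 on the log2 scale where all genes tested had 0.00. With quantile normalization the brain median was -0.01; without hDNMT3A replicate 2 it was -0.03 and without wild-type replicate 2 it was -0.02, so its sign depended on the scaling and on single libraries. In testis 71 were higher and 40 lower, with a median of 0.04 against 0.02. The testis median depended on hDNMT3A replicate 3: without it, it was -0.00. The 3 hDNMT3A values lay above the 3 wild-type values for 5 genes in brain, against 6.15% of all genes tested, and below them for 12, against 7.2%. In testis they lay above for 12 genes, against 9.94%, and below for 4, against 7.75%. As shares of the 111 genes, these counts were above the background for lower genes in brain and higher genes in testis and below it for the others. Each brain count holds a gene with a mean under 100 FPKM in its lower group, so the brain counts are not independent of the rule. How many of the 12 lower genes are of this kind was not counted.

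A p that misses the threshold does not show equal levels, so the 95% confidence interval of the difference was set against a fold limit. In brain the interval lay wholly within 1.5-fold either way for 105 of the 111 genes (94.6%), against 73.9% of all genes tested. In testis it did so for 108 (97.3%), against 70.7%. Other abundant genes were bounded as often or more often. The share was 100% in each tissue for the 59 genes that missed the ratio rule. Among all others of at least 100 FPKM in the tissue, the shares were 96.1% in brain and 97.5% in testis. Within 1.5-fold in both tissues were 103 genes, where 67.1% of the genes tested in both were. With a limit at a ratio of 5 to 4 either way, 69 genes in brain and 78 in testis remained, against 34.8% and 33.4% of all genes. With a limit of 2-fold, 110 genes lay inside in each tissue, against 90.9% and 89.8%. The intervals are not adjusted for the number of genes.

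**Figure D4:**
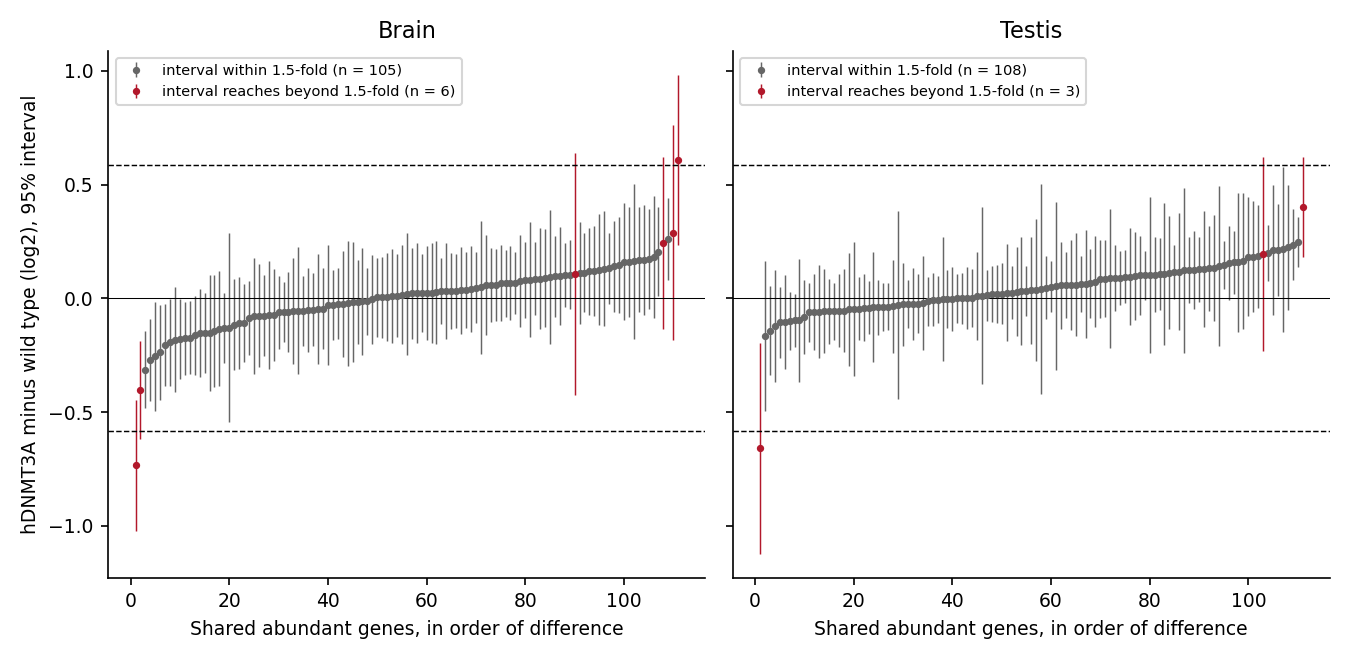
Difference between hDNMT3A and wild type (vertical axis, log2, positive where hDNMT3A is higher) with its 95% confidence interval for the 111 shared abundant genes, ordered by the difference within brain and within testis. Dashed lines mark 1.5-fold; the intervals of 6 genes in brain and 3 in testis (red) reach beyond it.

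The interaction is the genotype difference in brain minus that in testis. It was called for 0 of the 111 genes by limma, where 0.421% of 10917 genes were called, and the smallest adjusted p was 0.27. At an unadjusted p under 0.05 there were 10 genes, or 9.01% against 8.04%. That number was 18 with quantile normalization, against 8.38% of all genes, and 6 without wild-type brain replicate 1, against 7.32%. It was 18 with genotype and replicate number together as a block, against 8.41%. In 1 of the 10 genes the difference was higher in brain, against 2.65%, and in 9 lower, against 5.4%. At an adjusted p under 0.1 there were also 0, against 0.769%, and with voom on the recovered reads 0 were called, against 0.449%. A size of at least 1.5-fold was seen for 1 gene, against 5.97%. The interval of the interaction lay within 1.5-fold for 89 genes (80.2%), against 59.6% of all genes tested, so the remaining 22 are not bounded to that size. Of the 59 other genes with at least 100 FPKM in both tissues, 83.1% were bounded. The sign of the genotype difference was the same in both tissues for 54 of the 111 genes, 38 higher and 16 lower in hDNMT3A, where 53.8% of all genes had equal signs. The comparisons share no library, but the labels do not say whether they share rats.

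Values are given for 4 genes by their identifiers: those with the largest difference in each direction in each tissue, and the gene with the smallest adjusted p in testis. None passed the threshold above. ENSRNOG00000016220 was the furthest toward hDNMT3A in both tissues. Its wild-type brain mean was under the minimum of 100 FPKM, so it was a member through its hDNMT3A values, and its brain difference is not independent of the rule. In brain it stood at 108, 81.9 and 107 FPKM in wild type and at 138, 187 and 131 FPKM in hDNMT3A. In testis it stood at 105, 103 and 97.8 FPKM in wild type and at 126, 157 and 125 FPKM in hDNMT3A. The groups did not overlap in either tissue. The means were 98.8 ± 14.7 and 152 ± 30.3 FPKM in brain (SD, n = 3), 1.54 times higher in hDNMT3A. In testis they were 102 ± 3.77 and 136 ± 18.2 FPKM (SD, n = 3), 1.33 times higher. The log2 differences were 0.61 (SE 0.16, adjusted p = 0.38 by limma) in brain and 0.40 (SE 0.09, adjusted p = 0.16 by limma) in testis. Over 15 alternatives in each tissue the sign held and the adjusted p ran from 0.16 to 0.87 in brain and from 0.092 to 0.37 in testis. Its tissue means were 125 and 119 FPKM, and genotype made up 67.7% of its variation over the 12 libraries.

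ENSRNOG00000009439, the most abundant of the 111 genes over all libraries, had the smallest adjusted p in testis and was named after its values were seen. Its testis values were 1038, 1047 and 1052 FPKM in wild type and 1298, 1212 and 1219 FPKM in hDNMT3A. The groups were well apart, and the wild-type replicates differed little. The means were 1046 ± 7.10 and 1243 ± 47.9 FPKM (SD, n = 3), 1.19 times higher in hDNMT3A. The log2 difference was 0.25 (SE 0.05, adjusted p = 0.090 by limma), and with voom it was called (adjusted p = 0.017). Over 15 alternatives the adjusted p ran from 0.017 to 0.27. In brain its values overlapped, at 1199, 1065 and 1147 FPKM in wild type and 1308, 1225 and 1169 FPKM in hDNMT3A (log2 difference 0.12, SE 0.08, adjusted p = 0.82 by limma). The tissue means, 1186 and 1144 FPKM, differed by 1.04-fold, and its coefficient of variation over the 12 libraries was 8.24%. Genotype made up 64.4% of its variation over the 12 libraries.

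ENSRNOG00000047003 was the furthest toward wild type in brain. Its hDNMT3A brain mean was under the minimum of 100 FPKM, so it was a member through its wild-type values, and its brain difference is not independent of the rule. Its brain values were 154, 125 and 136 FPKM in wild type and 76.1, 98.2 and 75.6 FPKM in hDNMT3A, so the groups did not overlap. The means were 138 ± 14.4 and 83.3 ± 12.9 FPKM (SD, n = 3), 1.66 times higher in wild type. The log2 difference was -0.73 (SE 0.12, adjusted p = 0.16 by limma), and over 15 alternatives the adjusted p ran from 0.098 to 0.56. In testis the groups overlapped, with means of 140 ± 30.5 and 137 ± 24.5 FPKM (SD, n = 3; log2 difference -0.03, adjusted p = 0.97 by limma). The interaction, in log2 units, was -0.70 (adjusted p = 0.42 by limma), so a difference between the tissues was not established. This gene is 225 bases long as counted and had 258 to 601 reads per library.

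ENSRNOG00000024603 was the furthest toward wild type in testis. Its testis values were 254, 260 and 302 FPKM in wild type and 134, 158 and 238 FPKM in hDNMT3A. The groups did not overlap, but hDNMT3A replicate 3 lay near the wild-type values. The means were 272 ± 26.2 and 177 ± 54.6 FPKM (SD, n = 3), 1.54 times higher in wild type. The log2 difference was -0.66 (SE 0.20, adjusted p = 0.26 by limma). Without that library it was -0.90 and was called (adjusted p = 0.031 by limma), against 0.493% of all genes in that fit. This was the only call in 15 alternatives, over which the adjusted p ran from 0.031 to 0.52. In brain its values were 208, 176 and 224 FPKM in wild type and 155, 173 and 180 FPKM in hDNMT3A, which overlapped (log2 difference -0.25, SE 0.10, adjusted p = 0.61 by limma).

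**Figure D5:**
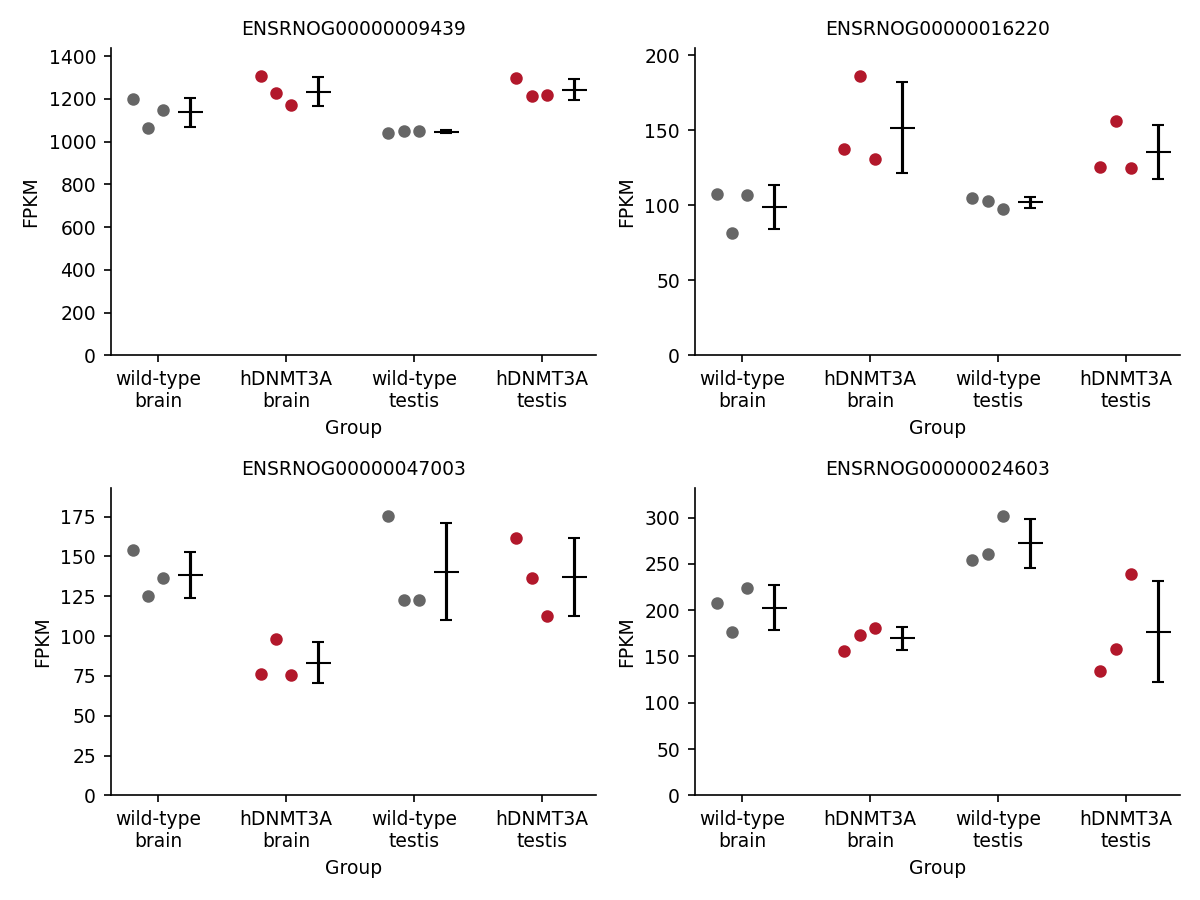
FPKM of 4 of the shared abundant genes by group (grey, wild type; red, hDNMT3A), with 1 point per library and the mean ± SD of 3 libraries beside the points. ENSRNOG00000016220 is higher in hDNMT3A in both tissues and ENSRNOG00000009439 in testis, while ENSRNOG00000047003 is lower in brain and ENSRNOG00000024603 lower in testis; none passed the threshold in the fit reported here.

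The genes that could not be bounded within 1.5-fold were of several lengths in brain and short in testis. The 6 in brain were 225 to 1779 bases long, 2 of them under 500 bases, and the 3 in testis were 305 to 586 bases long. All 15 genes of at least 2000 bases were bounded in both tissues. Of the 19 genes under 500 bases, 17 were bounded in brain and 18 in testis.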

How the data were processed

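The values were deposited by the authors as FPKM, in a single table of 25908 genes and 12 libraries. Libraries were built from total RNA with an Illumina TruSeq RNA kit, per the labels' protocols. The submitters' processing notes name Bowtie 1.0.1 and the build Rnor_6.0. Annotation, counting tool, strand and the handling of shared reads: not given in the sources used here. Overlapping or near-identical genes are therefore uncertain. Identifiers were looked up in RefSeq's GRCr8 table of 47357 genes and 0 matched, so gene lists, markers and sequences planned for named genes were not used.

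Whole reads and gene lengths were recovered from the steps of the values: for 100% of genes the 12 values were whole multiples of 1 read within 0.002 reads, for the shortest fitting length up to 60000 bases. When 1617 genes were moved by up to about 1%, 0% came out whole. The chi-square per gene between replicates was at least 4.53, so no library was counted as a repeat.

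Genotypes were compared by limma (3.58.1, R 4.3.3; two-sided, with its trend on intensity) on log2(FPKM + 0.5), for all genes whose mean in the tissue reached 1 FPKM. All 111 genes passed this filter. A call is an adjusted p under 0.05. Fold changes on this scale are slightly understated. The interaction used 4 group means over 12 libraries, and a positive value means a difference higher in brain. The fits were also run on simulated reads with known changes. The simulation gave all genes of a tissue a common spread, taken from the wild-type libraries, and no shifts of whole libraries. It therefore does not test the fits under the shifts between libraries described above. Other steps ran in Python 3.11.15 (pandas 2.3.3, numpy 2.4.6, scipy 1.17.1, matplotlib 3.10.9). The labels name no batch. Genes were named by a rule: the largest difference in each direction in each tissue, and 1 gene chosen after its values were seen. The members, lists and rules were chosen with earlier results of these data known. Alternatives changed the pseudocount, filter, scaling, trend, block, fit, thresholds and libraries.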

Additional observations from a re-analysis of the deposited data

How the results depend on the processing

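The set held 320 genes with a minimum of 50 FPKM and 25 with a minimum of 200 FPKM, against 111. It numbered 110 to 114 when single libraries were left out, and 106 of the 111 genes were kept in each of these fits. Counts of calls were 0 in brain and for the interaction in all alternatives run. Over all genes, the shares called ran from 0% to 0.412% in brain and from 0.00916% to 0.769% for the interaction. Counts of 0 therefore do not set the 111 genes apart. In testis there was 1 call at an adjusted p under 0.1 (1.37% of all genes), 1 with voom (1.3%), and 0 to 1 when single libraries were left out (1 without hDNMT3A replicate 3, 0.493%). In brain 69 genes were bounded within a ratio of 5 to 4, against 105 within 1.5-fold. Over 15 other alternatives in each tissue, 103 to 107 genes were bounded in brain and 101 to 109 in testis. When single libraries were left out, the median coefficient of variation of the 2 that remained ran from 4.24% to 8.25% in wild-type brain, from 4.89% to 7.42% in hDNMT3A brain, from 2.48% to 4.09% in wild-type testis and from 3.66% to 8.11% in hDNMT3A testis. The cause was not tested.

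Correlations of same-numbered samples ran from -0.27 to 0.18, with 2 of 12 pairs over 0.1. Between genotypes within a tissue, where a number cannot mark the same rat, they ran from -0.27 to 0.11. Between brain and testis of a genotype, where it could, they ran from -0.006 to 0.18. The numbers were not taken to pair the samples in the main fits. Each of the 12 libraries was also set against 2 other groups, which gave 24 comparisons that are not independent. In 13 of them the library was closest to its own number, where 8 would be if numbers meant nothing. This count pools comparisons between genotypes with those between tissues, so it does not bear on shared rats alone. Whether the numbers mark shared animals was not settled. Fits with a block were also run. Within a tissue the block was the replicate number, which joins libraries of different genotypes. For the interaction it joined brain and testis of the same genotype and number. With these blocks, 0 of the 111 genes were called in brain, in testis or for the interaction, and 103 and 109 were bounded in brain and testis. Over all genes these fits called 0 in brain, 39 in testis and 1 for the interaction, against 16, 84 and 46. With 3 libraries a group, the median 95% interval of these genes reached 0.20 to either side in brain and 0.17 in testis on the log2 scale, which limits the size of difference that can be seen.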
